A study of Mus musculus with 6 samples.

Results

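The 51 genes described here are the gene for the transmembrane glycoprotein Gpnmb and 50 genes for the enzymes, membrane proteins, proton pump subunits and transcription factors of the lysosome, measured by RNAseq in immortalized mouse pancreatic fibroblasts. Each gene was matched by its symbol, and 50 of the 51 have a row among the 14831 genes of the count table. The level of Ctss, which encodes cathepsin S, was not analysed here. Gpnmb was chosen by its large change between the groups of these same libraries, so its values are a description with no test. The other genes were listed for their place in the lysosome.

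The study asked how the transcription factors of the Hedgehog pathway, Gli2 and Gli3, shape gene expression in fibroblasts. It compared 3 libraries labelled WT with 3 labelled Gli2-/-;Gli3-/- (below, WT-labelled and KO-labelled libraries), each made from polyadenylated RNA of its own culture well grown to confluence in DMEM with calf serum. In the study's account, the lines grew out of adult pancreas of mice with floxed Gli alleles on a mixed background, were immortalized and were then sorted after infection. Controls received GFP adenovirus and a dsRed lentivirus, and knockout cells received adenoviruses for GFP and for Cre. Control and knockout cells thus both came from floxed lines and were both infected. The viruses differed between the groups, so virus and genotype cannot be told apart here. The labels give the genotype and name no separate derivations of a line. The p-values below thus measure the spread between 3 wells of a group, which may be technical. In bulk RNA, fewer cells of a type and less RNA per cell cannot be told apart.

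The lysosome is an acidic organelle in which hydrolases break down proteins, glycans and lipids. The V-ATPase pumps in the protons that these enzymes need, and heavily glycosylated membrane proteins line the organelle. Many of its genes carry E-boxes of the CLEAR type near their start sites, which the MiT/TFE transcription factors (Tfeb, Tfe3 and Mitf) bind, and mTORC1 on the lysosomal surface holds these factors in the cytoplasm when nutrients are plentiful. Gpnmb is a glycoprotein of melanosomes and of the endolysosomal system of macrophages and other cells, and is known as a gene that responds to lysosomal stress.

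The counts of the targeted genes went against the labels. Gli2 had 809, 944 and 868 counts in WT-labelled libraries and 1932, 2316 and 1926 in KO-labelled ones. Gli3 had 392, 416 and 398 counts against 1434, 1637 and 1404. Both were thus higher in all 3 KO-labelled libraries (log2 fold change 1.05 for Gli2 and 1.71 for Gli3). Every direction below rests on the labels, which these counts went against. Each count covers the whole gene, and reads over the floxed exons alone were not analysed here. Such counts cannot show whether the labels are right or wrong. The study checked the loss of Gli genes in such lines by qPCR and western blot, which are not analysed here either. Libraries held 31728420 to 41035931 counts, and 3 counts correspond to between 0.0720 and 0.0957 CPM (a count relative to its library's total, scaled by edgeR's TMM factors). After a filter on low counts 14289 genes were tested with edgeR's quasi-likelihood test, and 17.7% of them were called, that is, differed by 1.5-fold or more with an adjusted p below 0.05. All 50 lysosomal genes with a row passed the filter.

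Gpnmb carried by far the widest gap of these genes. It had 228, 235 and 234 CPM in WT-labelled libraries and 23.7, 27.5 and 26.6 CPM in KO-labelled ones. The groups stood far apart, and the lowest library labelled WT lay well above the highest labelled KO. In counts, these are 7152, 7877 and 7470 against 840, 1148 and 878. The means were 232 ± 3.73 and 26.0 ± 1.99 CPM (SD, n = 3), a log2 fold change of -3.16 ± 0.05 (SE), or 8.94-fold lower in KO-labelled libraries. By fold, Gpnmb ranked 66 among all 871 genes called lower, a description only, since it was chosen for its large change.

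Gpnmb lies on the forward strand of chromosome 6 (49036546 to 49070929, GRCm38), with 6514 bases of exon that no other annotated gene overlaps. Of the 10 other tested genes within 500 kb, the nearest, Malsu1, a mitochondrial ribosome assembly factor 2866 bases downstream, had 17.7, 16.8 and 17.2 CPM in WT-labelled libraries and 16.8, 17.8 and 15.3 CPM in KO-labelled ones (log2 fold change -0.05, edgeR adjusted p = 0.531). Igf2bp3, an mRNA-binding protein gene 14294 bases from Gpnmb whose span overlaps that of Malsu1 on the opposite strand, was called lower, with 1063, 1169 and 1169 counts against 797, 907 and 715 (log2 fold change -0.68, edgeR adjusted p = 6.66e-08). Zfp775, a zinc finger gene 413319 bases upstream, had 0, 1 and 0 counts in WT-labelled libraries and 105, 118 and 92 in KO-labelled ones, at least 29.9-fold higher against a floor of 3 counts per library. The 7 remaining neighbours were not called in either direction. By edgeR's adjusted p alone, Tmem176a, Tmem176b and Ccdc126 were lower (log2 fold change -0.35, -0.30 and -0.26) and Atp6v0e2 was higher (0.25).

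The 300 bases around the start of Gpnmb are shown because this gene carried the largest change, beside those of Scarb2, Gla and Atp6v1a, 3 of the 5 other genes called lower. They come from RefSeq on GRCm38.p6 and run 5′ to 3′ from 250 bases before the start to 50 after it. These RefSeq starts need not match the annotated gene spans printed elsewhere. The Gpnmb start lies just upstream of its span, and those of Scarb2, Gla and Atp6v1a lie inside theirs. Distances to motifs count from the RefSeq starts. Capitals mark the palindrome TCACGTGA, which holds the core E-box CACGTG, and the related CATGTG on either strand (CACATG when read on the gene's strand). The coordinates are chr6:49036268-49036567 (forward strand) for Gpnmb, chr5:92505608-92505907 (reverse) for Scarb2, chrX:134600956-134601255 (reverse) for Gla and chr16:44139210-44139509 (reverse) for Atp6v1a.
Gpnmb: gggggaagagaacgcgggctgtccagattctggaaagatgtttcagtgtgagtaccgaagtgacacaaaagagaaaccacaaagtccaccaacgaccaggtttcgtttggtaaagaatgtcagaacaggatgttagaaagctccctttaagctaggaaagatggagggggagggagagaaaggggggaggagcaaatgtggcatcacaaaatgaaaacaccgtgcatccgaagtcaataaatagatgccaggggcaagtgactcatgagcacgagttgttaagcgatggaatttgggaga
Scarb2: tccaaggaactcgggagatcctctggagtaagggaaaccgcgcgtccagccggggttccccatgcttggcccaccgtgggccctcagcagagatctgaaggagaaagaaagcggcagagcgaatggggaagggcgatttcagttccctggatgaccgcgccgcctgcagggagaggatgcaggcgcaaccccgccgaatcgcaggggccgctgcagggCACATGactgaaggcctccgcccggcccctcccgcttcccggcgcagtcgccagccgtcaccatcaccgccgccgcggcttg
Gla: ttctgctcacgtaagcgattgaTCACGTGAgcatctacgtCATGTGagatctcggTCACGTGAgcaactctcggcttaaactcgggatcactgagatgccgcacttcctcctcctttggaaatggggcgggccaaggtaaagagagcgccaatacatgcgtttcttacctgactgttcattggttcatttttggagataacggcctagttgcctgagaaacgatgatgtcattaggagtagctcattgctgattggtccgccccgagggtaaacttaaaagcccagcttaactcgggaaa
Atp6v1a: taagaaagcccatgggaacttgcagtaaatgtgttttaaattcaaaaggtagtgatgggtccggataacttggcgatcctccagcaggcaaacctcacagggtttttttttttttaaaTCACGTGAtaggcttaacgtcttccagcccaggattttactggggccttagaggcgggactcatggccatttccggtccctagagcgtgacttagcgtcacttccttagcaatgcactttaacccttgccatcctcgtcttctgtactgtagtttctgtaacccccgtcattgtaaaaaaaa
The Gpnmb window held none of the motifs searched, which says only that these letters are not in this window. The Scarb2 window held 1 CACATG, the Atp6v1a window held 1 TCACGTGA, and the Gla window held 2 TCACGTGA and 1 CATGTG. Of the called genes whose windows are not shown, Neu1 had 1 CACATG and Ctsc had none of the motifs.

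TCACGTGA was found in the windows of 7 lysosomal genes of 45 with a promoter entry (15.6%), against 2.21% of the 10337 tested genes and 1.12% of all 27025 genes with an entry. A gene counted if any of its windows held the motif, and the 45 genes, among them Ctss, had 54 windows. CACGTG, which lies inside every TCACGTGA, was in 16 of 45 (35.6%), against 11.6% of tested genes and 8.09% of all genes. CATGTG on either strand was in 10 of 45 (22.2%), against 10.2% of tested genes and 15.9% of all genes. Beside Gla and Atp6v1a, TCACGTGA stood in the windows of Atp6v0d1, Cln3, Ctsa, Ctsd and Mcoln1, shown with 15 bases on each side. Cln3 and Ctsa each have another window, which held 0 TCACGTGA. The Ctsa window used here held TCACGTGA at 2 places, and the upstream one is shown.
Atp6v0d1 (chr8:105566046-105566083, reverse strand, 4 bases before the start): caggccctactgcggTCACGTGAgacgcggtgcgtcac
Cln3 (chr7:126583336-126583373, reverse strand, 122 bases before): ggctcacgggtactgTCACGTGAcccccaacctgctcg
Ctsa (chr2:164833745-164833782, forward strand, 13 bases before): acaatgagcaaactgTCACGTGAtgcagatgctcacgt
Ctsd (chr7:142387904-142387941, reverse strand, 99 bases before): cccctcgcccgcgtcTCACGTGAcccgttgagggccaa
Mcoln1 (chr8:3500458-3500495, forward strand, 46 bases before): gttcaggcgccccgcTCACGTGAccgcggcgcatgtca
The 16 tested genes whose window held CACGTG had a median log2 fold change of -0.17, 2 of them called lower (Gla and Atp6v1a), and the 27 without it, Gpnmb left out, had a median of -0.18 with 3 called lower. Among the other pathway genes described below, the medians were -0.22 with CACGTG (n = 22) and -0.15 without it (n = 66).

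**Figure D1:**
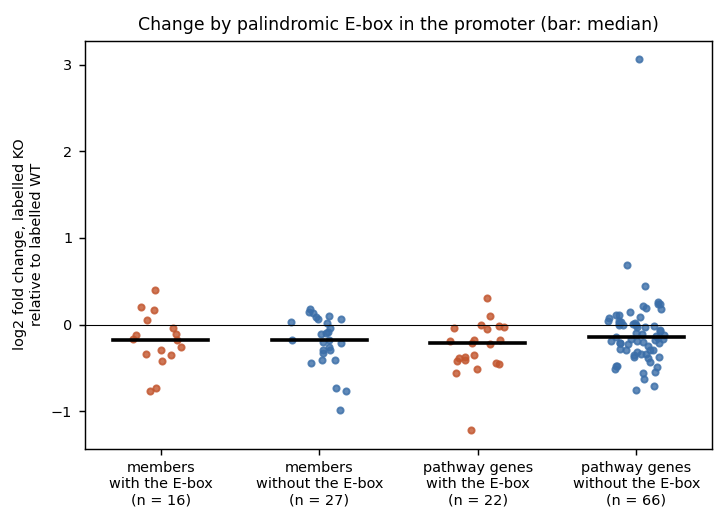
Log2 fold change (labelled KO relative to labelled WT) of the lysosomal genes and of the other pathway genes, split by whether any 300-base promoter window holds CACGTG. Points are genes and bars are medians, which are -0.17 (n = 16) with the motif and -0.18 (n = 27) without it for the lysosomal genes, and -0.22 (n = 22) and -0.15 (n = 66) for the pathway genes.

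The MiT/TFE factors differed little between the groups. Tfeb had 15.4, 15.6 and 14.6 CPM in WT-labelled libraries and 16.1, 16.7 and 17.1 CPM in KO-labelled ones. The ranges did not overlap, yet the log2 fold change was 0.13 ± 0.06 (SE; 95% interval 0.01 to 0.25; edgeR adjusted p = 0.0669). The value passed an adjusted p of 0.05 under upper-quartile scaling (0.19, adjusted p = 0.0126) and total-count scaling (0.16, adjusted p = 0.0241). Tfe3 had 63.4, 61.8 and 61.5 CPM against 61.7, 57.9 and 56.1, with overlapping ranges and a log2 fold change of -0.09 ± 0.04 (95% interval -0.17 to 0.00; edgeR adjusted p = 0.0797). It passed the adjusted p when replicate 1 labelled KO was left out (-0.13, adjusted p = 0.0166). Mitf had 4.98, 5.79 and 5.45 CPM against 4.63, 5.11 and 5.39, with overlapping ranges and a log2 fold change of -0.10 (95% interval -0.32 to 0.11; edgeR adjusted p = 0.396).

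Beside Gpnmb, 49 lysosomal genes were tested, and most of those that passed the adjusted p were lower by less than 1.5-fold. Of the 49, 5 were called lower (10.2%; 6.10% of all tested genes) and 0 were called higher (11.6% of all tested genes). The 5 are Scarb2, Ctsc, Gla, Neu1 and Atp6v1a, and their direction rests on the labels that the Gli2 and Gli3 counts went against. By the adjusted p alone, with no fold limit, 29 of the 49 were lower (59.2%; 28.8% of all tested genes), 7 were higher (14.3%; 29.9%) and 13 passed in neither direction. Under upper-quartile scaling the split was 24 lower and 12 higher. The median log2 fold change of the 49 was -0.17, with a range from -0.98 to 0.45, and the median over all tested genes was 0.00197 with quartiles at -0.20 and 0.24. The groups did not overlap for 42 of the 49, against 64.2% of all tested genes. These genes are more abundant than most, with a median of 102 CPM in WT-labelled libraries against 22.3 CPM over all tested genes. Summed per library, the 49 genes made up 12881 ± 122 CPM in WT-labelled libraries and 11426 ± 88.5 CPM in KO-labelled ones, 11.3% less.

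**Figure D2:**
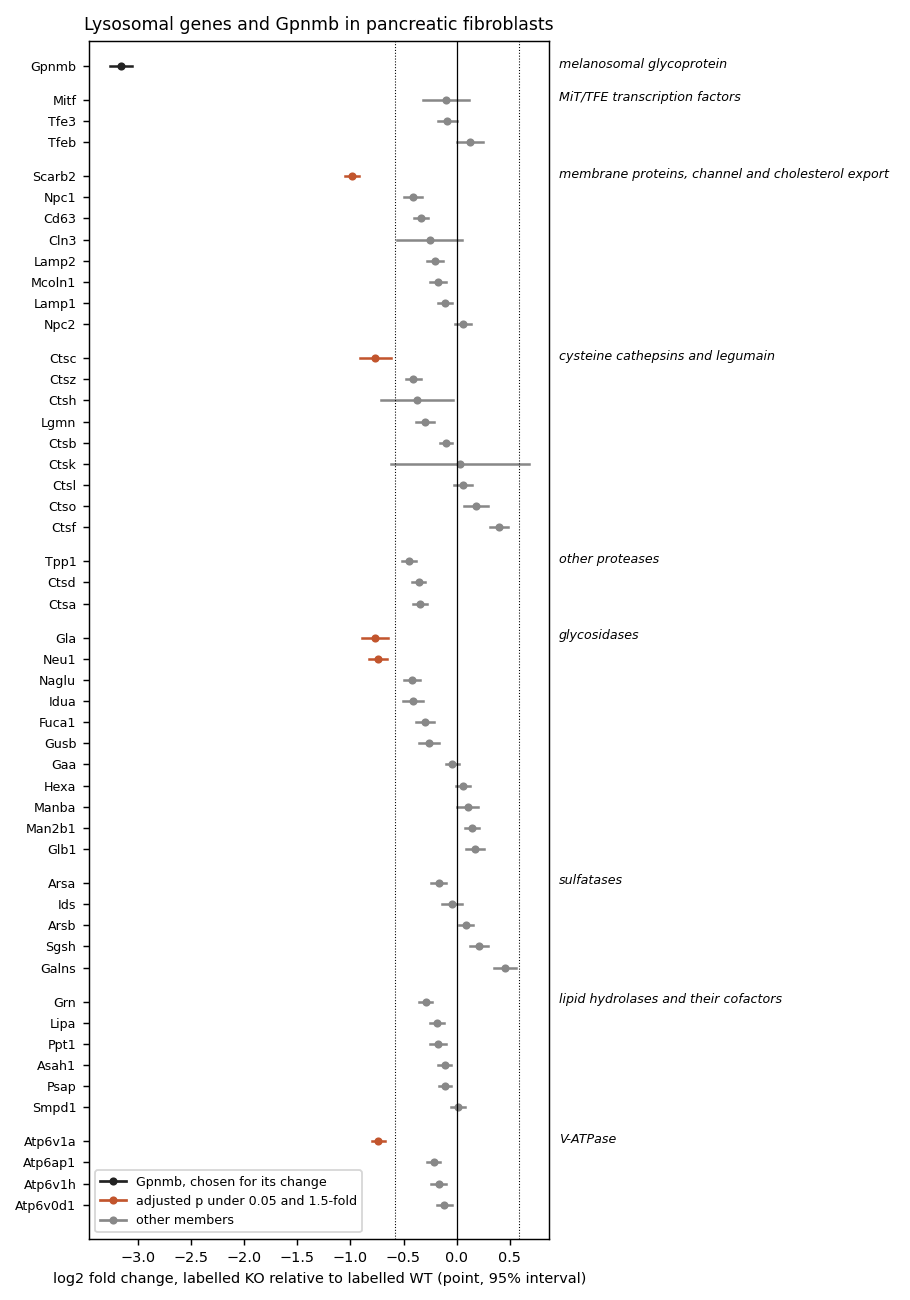
Log2 fold change, labelled KO relative to labelled WT, of the 50 lysosomal genes with a row, grouped by role, as points with 95% intervals. Gpnmb lies apart at -3.16, the 5 genes called lower lie between -0.98 and -0.74, and all other genes lie between -0.45 and 0.45.

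Among the membrane proteins, Scarb2 changed most. Scarb2 (LIMP-2) is an abundant membrane protein of the lysosome. Its 3 libraries labelled WT had 215, 207 and 210 CPM and KO-labelled ones had 109, 106 and 105. The groups were far apart (210 ± 4.17 against 106 ± 1.96 CPM, SD, n = 3), with a log2 fold change of -0.98 ± 0.03 (SE; edgeR adjusted p = 4.21e-11), or 1.98-fold lower. Scarb2 lies on chromosome 5 (92441314 to 92506833, reverse strand, GRCm38).

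The structural glycoproteins of the membrane differed by less. Lamp1, the most abundant of these proteins per length, had 933, 995 and 972 CPM against 889, 905 and 887 (log2 fold change -0.11, edgeR adjusted p = 0.00614), a difference that did not pass under upper-quartile scaling (adjusted p = 0.134). Lamp2, Cd63, the lysosomal calcium channel Mcoln1 and the cholesterol exporter Npc1 also had an adjusted p under 0.05, with log2 fold changes from -0.41 (Npc1) to -0.18 (Mcoln1). The soluble cholesterol carrier Npc2, the partner of Npc1, had 439 ± 16.3 against 457 ± 9.35 CPM (log2 fold change 0.06, edgeR adjusted p = 0.138). Cln3, a lysosomal membrane protein gene of Batten disease, was near the low end of the range at 2.56 ± 0.246 and 2.13 ± 0.222 CPM, with overlapping groups. Of the 8 genes of this group, 6 were lower by the adjusted p (28.8% of all tested genes) and 0 were higher (29.9%). The group's median log2 fold change was -0.23.

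The cysteine cathepsins and legumain, the main thiol proteases of the lysosome, moved in both directions. Ctsc (cathepsin C), the dipeptidyl peptidase that activates serine proteases of immune cells, had 18, 18.9 and 16.6 CPM in WT-labelled libraries and 10.7, 9.93 and 10.9 CPM in KO-labelled ones. It was called lower (log2 fold change -0.77 ± 0.07, edgeR adjusted p = 8.31e-07) and lies on chromosome 7 (88278085 to 88310888, forward strand). Ctsz, the carboxypeptidase with the highest level per length of the group, had 233, 232 and 233 CPM against 180, 178 and 169, with a log2 fold change of -0.41 (edgeR adjusted p = 2.13e-07), short of the 1.5-fold limit. Ctsf lay on the other side, with 38.5, 40.9 and 39.0 CPM against 51.1, 53.3 and 52.0 (log2 fold change 0.40, edgeR adjusted p = 1.99e-06). The broadly expressed endopeptidases Ctsb and Ctsl had log2 fold changes of -0.10 and 0.06, and the ranges of Ctsl overlapped. Exons of other annotated genes overlap 26.8% of the exon bases of Ctsl and 12.8% of those of Ctsb, which makes both values uncertain. Ctsk, the collagen-degrading cathepsin of osteoclasts, was scarcely detected, with 12 to 14 counts in WT-labelled libraries and 13 to 18 in KO-labelled ones, and its interval ran from -0.62 to 0.68. Of the 9 genes tested, 4 were lower (28.8% of all tested genes) and 2 higher (29.9%) by the adjusted p. The median log2 fold change was -0.10.

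The other proteases of the list were lower by the adjusted p in all 3 cases (28.8% of all tested genes), each by less than 1.5-fold. Tpp1, a tripeptidyl peptidase, had 242, 258 and 256 CPM in WT-labelled libraries and 185, 186 and 183 CPM in KO-labelled ones (log2 fold change -0.45 ± 0.03, edgeR adjusted p = 1.02e-07). The aspartic protease cathepsin D (Ctsd) had 621, 649 and 625 CPM against 495, 491 and 493 (log2 fold change -0.36, edgeR adjusted p = 2.95e-07). Same-strand exons of another annotated gene (Gm49369) cover 34.4% of the exon bases of Ctsd, so its reads could be split between them in counting. Ctsa had 297, 301 and 297 CPM against 234, 241 and 230, a log2 fold change of -0.34. Exons on the opposite strand overlap 17.4% of its exon bases, which makes this value uncertain. The groups did not overlap in any of the 3 genes, as for 64.2% of all tested genes.

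Neu1 and Gla were the called genes among 11 glycosidases. Neu1, the sialidase that removes terminal sialic acid from glycoproteins, had 55.6, 57.0 and 57.6 CPM in WT-labelled libraries and 33.4, 33.7 and 35 CPM in KO-labelled ones, which was 1.67-fold lower (log2 fold change -0.74 ± 0.04, edgeR adjusted p = 4.60e-09). Gla, alpha-galactosidase A, the enzyme deficient in Fabry disease, had 20.3, 20.5 and 21.4 CPM against 12.2, 11.8 and 12.6, also called lower (log2 fold change -0.77 ± 0.06, edgeR adjusted p = 1.16e-07). Neu1 lies on chromosome 17 (34931253 to 34935953, forward strand) and Gla on chromosome X (134588149 to 134601125, reverse strand). Neither gene shares exon bases with another annotated gene.

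Neu1 protein works in a complex with Ctsa and the beta-galactosidase Glb1, and the mRNAs of the 3 partners did not move alike. Neu1 and Ctsa were lower, while Glb1 had 34.6, 34.4 and 34.3 CPM in WT-labelled libraries and 37.6, 39.1 and 39.4 CPM in KO-labelled ones (log2 fold change 0.17 ± 0.04, edgeR adjusted p = 0.00237). Acid alpha-glucosidase (Gaa), the glycogen-degrading enzyme and the most abundant glycosidase per length, had 760, 758 and 748 CPM against 727, 735 and 743. Its log2 fold change was -0.04 (edgeR adjusted p = 0.220) and turned to 0.02 under upper-quartile scaling. Naglu and Idua, exoenzymes of heparan sulfate breakdown, had log2 fold changes of -0.42 and -0.41. In this group 6 genes were lower by the adjusted p (28.8% of all tested genes) and 2, Man2b1 and Glb1, were higher (29.9%). The median was -0.26.

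The sulfatases, which strip sulfate from glycosaminoglycans and sulfatides, had the highest median of all roles. Galns, which acts on keratan sulfate and chondroitin sulfate, had 22.1, 21.2 and 21.2 CPM in WT-labelled libraries and 30.2, 29.7 and 28.4 CPM in KO-labelled ones. Its log2 fold change of 0.45 ± 0.05 (edgeR adjusted p = 3.16e-06) was the largest increase among the 49 genes, yet under 1.5-fold. Sgsh had a log2 fold change of 0.21 and Arsb of 0.09, both with an adjusted p under 0.05. Exons on the opposite strand overlap 39.9% of the exon bases of Arsb, 21.6% of those of Sgsh and 18.75% of those of Arsa. Whether counting used strand is not given in the sources used here, so these values are uncertain. Arsa, the most abundant sulfatase per length, had 262, 263 and 249 CPM against 233, 233 and 221 (log2 fold change -0.17, edgeR adjusted p = 7.86e-04). The median over the 5 sulfatases was 0.09.

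The lipid hydrolases and their cofactors were lower in 5 of 6 cases by the adjusted p (28.8% of all tested genes), all by small amounts. Psap, the precursor of the saposins that present lipids to hydrolases, had the highest level per length of all 50 genes, at 918 ± 3.12 CPM per kb of exon in WT-labelled libraries and 851 ± 5.57 in KO-labelled ones (log2 fold change -0.11, edgeR adjusted p = 0.00207). That difference did not pass under upper-quartile scaling (-0.05, adjusted p = 0.0979). Grn, the precursor of the granulins, had 526, 537 and 532 CPM against 437, 437 and 428, the largest change of the group (log2 fold change -0.29, edgeR adjusted p = 1.24e-06). Lipa and Ppt1 had log2 fold changes of -0.18 each, and acid ceramidase (Asah1) of -0.11. Acid sphingomyelinase (Smpd1) had 80.5 ± 0.472 CPM against 81.3 ± 0.807, a log2 fold change of 0.01 with a 95% interval of -0.05 to 0.08.

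Of the 4 V-ATPase genes, Atp6v1a stood out. Atp6v1a encodes the catalytic A subunit of the ATP-hydrolysing domain and had 340, 343 and 337 CPM in WT-labelled libraries and 206, 204 and 202 CPM in KO-labelled ones. The change was 1.67-fold (log2 fold change -0.74 ± 0.03, edgeR adjusted p = 2.29e-10), and the gene lies on chromosome 16 (44085402 to 44139705, reverse strand). The accessory subunit Atp6ap1, the most abundant of the 4 per length, had 235, 238 and 231 CPM against 202, 206 and 197 (log2 fold change -0.22, edgeR adjusted p = 4.29e-05). Atp6v1h and Atp6v0d1 had log2 fold changes of -0.17 and -0.12, both with an adjusted p under 0.05. In the subunit list outside these 4, 10 of 14 were lower by the adjusted p (28.8% of all tested genes), 3 were higher (29.9%), and the range of -0.51 to 0.25 did not reach the value of Atp6v1a.

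**Figure D3:**
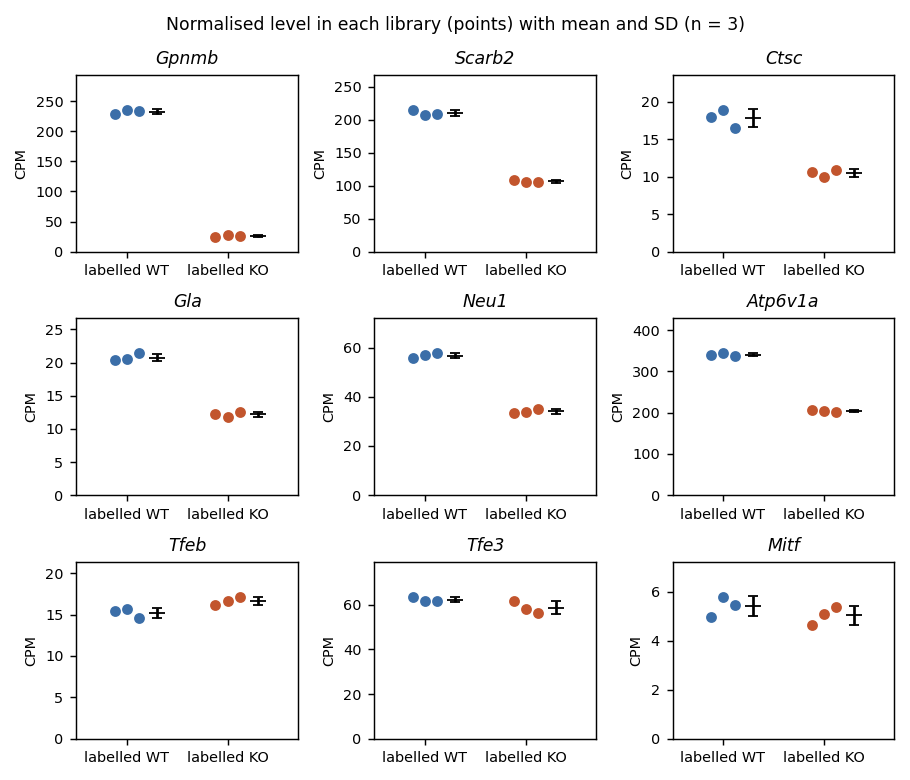
CPM in each of the 3 libraries labelled WT and the 3 labelled KO (points), with mean and SD (n = 3), for Gpnmb, the 5 genes called lower and the MiT/TFE factors, each on an axis from 0. The groups are apart for Gpnmb (232 against 26.0 CPM) and the 5 genes called lower, lie close for Tfeb, and overlap for Tfe3 and Mitf.

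The order of the genes by level per length was nearly the same in both groups. Over the 50 genes, Spearman's rho between the means of the groups was 0.969, a description across genes that share libraries and depth. Psap was followed by Lamp1 (361 CPM per kb in WT-labelled libraries and 334 in KO-labelled ones), Ctsd (269 and 210) and Cd63 (261 and 207). The lowest levels were those of Ctsk (0.260 and 0.268), Ctsh (0.356 and 0.274) and Cln3 (0.442 and 0.368). Gpnmb moved from place 22 with 35.7 ± 0.572 CPM per kb to place 43 with 3.98 ± 0.306, and Scarb2 from place 23 to place 29. These were the 2 genes that moved by 5 places or more. The coefficient of variation between wells of a group had a median of 1.93% in WT-labelled libraries and 2.44% in KO-labelled ones, and was widest for Ctsk (10.5% and 24.4%), the gene with the fewest counts.

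**Figure D4:**
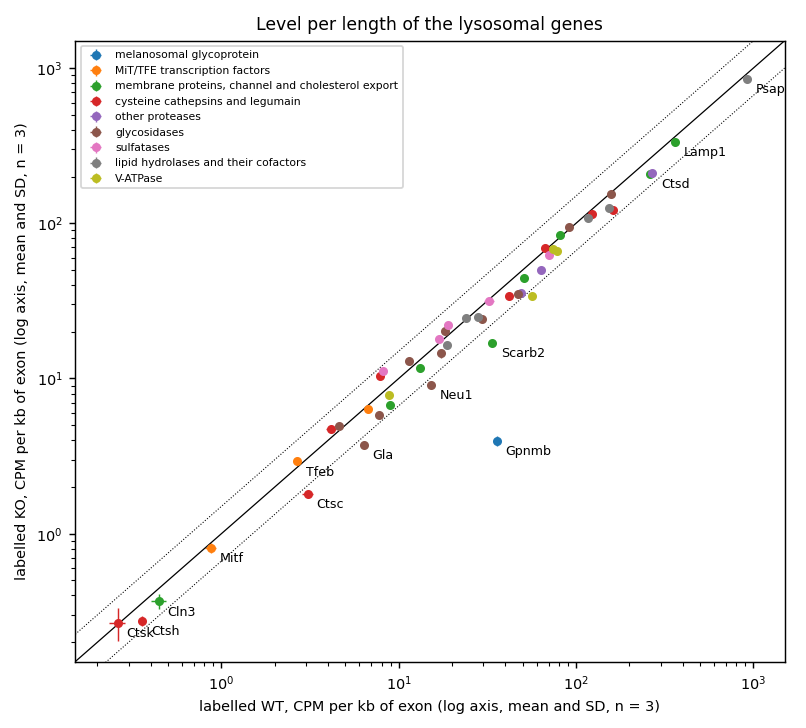
Mean level per length (CPM per kb of exon, log axes, with SD, n = 3) of each lysosomal gene in KO-labelled libraries against those labelled WT, by role. Most points lie close to the diagonal from Ctsk near 0.260 to Psap at 918, and Gpnmb lies well below it (35.7 against 3.98).

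The summed levels of the roles differed between groups to unequal degrees, given here as a share of the WT-labelled sum and thus in the direction of the labels. The V-ATPase genes summed to 793 ± 7.27 CPM in WT-labelled libraries and 605 ± 8.62 CPM in KO-labelled ones, 23.8% less, most of it from Atp6v1a. The other proteases were 22.8% lower in sum, the membrane proteins 14.0%, the lipid hydrolases and cofactors 8.98%, the cysteine cathepsins 6.25% and the glycosidases 5.93%. The sulfatases differed by 0.993%, less than the SD between wells labelled WT (630 ± 11.8 against 624 ± 0.842 CPM).

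The rest of the lysosomal pathway was followed in 119 further genes in 7 lists taken from textbook knowledge, of which 117 were tested. Of these, 6 were called lower (5.13%; 6.10% of all tested genes) and 3 higher (11.6% of all tested genes), so the share called lower was close to that over all genes. By the adjusted p alone 67 were lower (57.3%; 28.8% of all tested genes) and 21 higher (17.9%; 29.9%), with a median log2 fold change of -0.16. The largest decrease was that of Tpcn1, a cation channel of endolysosomes, with 116, 122 and 119 CPM in WT-labelled libraries and 40.3, 41.1 and 42.6 CPM in KO-labelled ones (log2 fold change -1.53 ± 0.04, edgeR adjusted p = 3.02e-12). Igf2r, the large mannose phosphate receptor that sorts new hydrolases to the lysosome and also binds Igf2, had 749, 801 and 844 CPM against 324, 328 and 375 (log2 fold change -1.22 ± 0.06, edgeR adjusted p = 1.42e-09). The small mannose phosphate receptor M6pr had a log2 fold change of 0.30 (edgeR adjusted p = 4.95e-06), in the opposite direction. The histidine and peptide transporter Slc15a4 had a log2 fold change of -0.75.

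Among the other hydrolases, the carboxypeptidase Cpq had 40.7, 45.0 and 43.7 CPM in WT-labelled libraries and 84.7, 84.6 and 83.5 CPM in KO-labelled ones (log2 fold change 0.97, edgeR adjusted p = 5.95e-10). Gm2a, the activator protein of ganglioside breakdown, was the other hydrolase-list gene called higher (0.69), and Ppt2 was called lower (-0.72), with 36.6% of its exon bases shared on the same strand with Gm20460. In the list of mTORC1, Ragulator and folliculin, which control the MiT/TFE factors, the folliculin partner Fnip2 was called lower (-0.63, edgeR adjusted p = 8.45e-07). The 21 genes of that list had a median of -0.18. In the autophagy list, the conjugation factor Atg12 was called lower at -0.59, close to the 1.5-fold limit, and Atg9b, with 0, 2 and 2 counts against 17, 13 and 11, was called higher, at least 3.92-fold above a floor of 3 counts per library. None of the 14 other V-ATPase subunits and neither of the 2 cathepsin inhibitors with a row was called. The medians of the 7 lists ran from -0.21 (V-ATPase subunits) to -0.03 (mannose phosphate tagging and sorting).

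**Figure D5:**
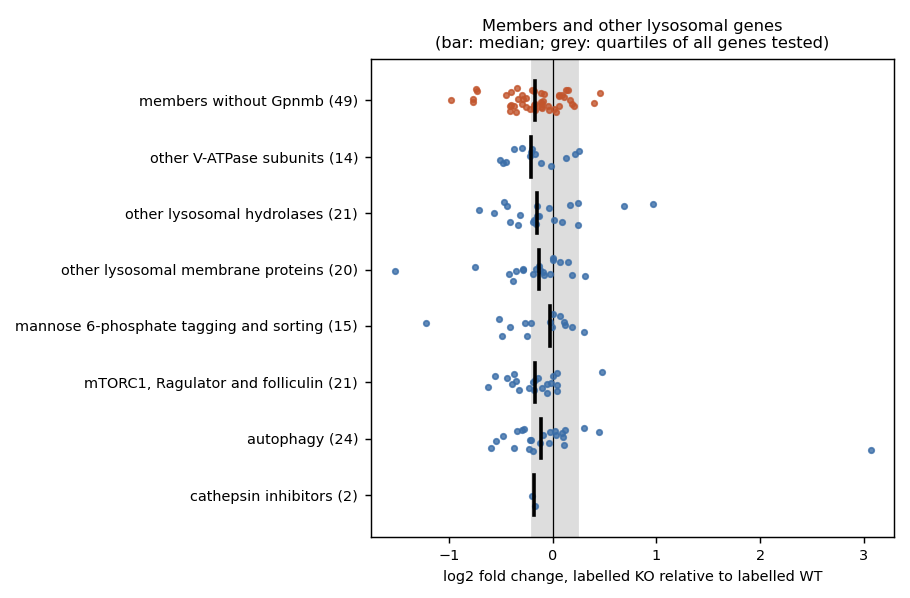
Log2 fold change, labelled KO relative to labelled WT, of each gene (points) among the 49 lysosomal genes other than Gpnmb and in the 7 further pathway lists. The number of genes is in brackets, bars lie at the medians and grey marks the quartiles of all tested genes (-0.20 to 0.24). The median is -0.17 for the 49 genes, and the medians of the 7 lists run from -0.21 (V-ATPase subunits) to -0.03 (mannose phosphate tagging and sorting).

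Macrophages, osteoclasts and pigment cells express Gpnmb and several cathepsins, so their markers were read in the same libraries. Of 13 macrophage markers, 6 have a row in the table, and Ptprc, Adgre1, Tyrobp, Itgam, C1qa, C1qb and Mrc1 have none. The 6 summed to 57.0 to 62.3 CPM in WT-labelled libraries and 53.8 to 55.7 CPM in KO-labelled ones, most of it from Lyz2. Of these 6, 0 were called (17.7% of all tested genes). By the adjusted p alone 2 were lower (28.8%) and 0 higher (29.9%). The 2 were Lyz2 and Cd14, with log2 fold changes of -0.17 and -0.18. Of 6 osteoclast markers only Nfatc1 has a row. Of 11 pigment cell markers 2 have a row, Pmel and Mlana. They summed to 2.26 to 2.49 CPM in WT-labelled libraries and 3.12 to 3.67 CPM in KO-labelled ones. Mlana was called higher, at 16, 14 and 13 counts against 27, 26 and 31 (edgeR adjusted p = 0.0203), a call that was lost with DESeq2 (adjusted p = 0.0917) and without any 1 of 3 libraries (edgeR adjusted p = 0.0665 to 0.0785). No endothelial marker of 4 has a row, and 3 of 6 epithelial markers do, at 8.81 to 8.93 CPM in sum in WT-labelled libraries and 6.58 to 7.42 in KO-labelled ones. Sox9 made up most of that sum, with 269, 281 and 273 counts in WT-labelled libraries and 198, 251 and 214 in KO-labelled ones (log2 fold change -0.50, edgeR adjusted p = 1.73e-04). Cdh1 was called higher, at 10, 14 and 9 counts against 28, 33 and 19, and Krt8, with 1, 0 and 2 counts against 7, 9 and 12, did not pass the filter.

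Fibroblast markers also moved with the groups. Col1a1, Col1a2 and Vim had log2 fold changes of 0.01, -0.19 and -0.13, and 5 of the 8 tested were called lower (6.10% of all tested genes), led by Lum (-5.60, edgeR adjusted p = 1.81e-11), Dcn (-1.55, edgeR adjusted p = 1.51e-12) and Col3a1 (-0.94, edgeR adjusted p = 1.03e-10). The 9 markers with a row summed to 44834 to 47247 CPM in WT-labelled libraries and 36784 to 38534 CPM in KO-labelled ones, and Fap and Pdpn have no row. Thy1, the marker with a row that did not pass the filter, had 4, 1 and 0 counts in WT-labelled libraries and 19, 15 and 9 in KO-labelled ones. The part of these marker changes in the values of the lysosomal genes was not tested.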

How the data were processed

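The data are 6 RNAseq libraries of immortalized mouse pancreatic fibroblasts, 3 labelled WT and 3 labelled KO, grouped by the sample labels alone. The authors deposited raw counts per gene, and beside them voom's log2 values on the CPM scale. The submitters' processing notes name STAR 2.7.2b, featureCounts, limma and GRCm38.p6. The annotation release and the strand setting are not given in the sources used here. The members and lists were chosen with earlier results of these data known, and the fold limit is the one of an earlier account of the series.

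The deposited counts were tested across the whole table with edgeR 4.0.16 (R 4.3.3), TMM factors, filterByExpr and the quasi-likelihood F test with Benjamini-Hochberg adjustment over 14289 genes, and a call needed 1.5-fold or more and an adjusted p below 0.05. CPM uses the TMM effective library size. A group of 3 against 3 gives an exact permutation p of 0.1 at the lowest, so single genes rest on edgeR's shared spread. On counts simulated from these libraries, with 193 changed genes among 14097, edgeR recovered 96.9% with 1 false call. Those figures hold for that set of genes alone, and recovery at the fold changes of the lysosomal genes was not tested. All 6 libraries were kept as separate replicates, since the chi-square of pairs within a group was 2.50 to 7.74 times its degrees of freedom. Totals ranged from 31728420 to 41035931 counts, and the biological coefficient of variation that edgeR estimated from the spread between libraries of a group was 3.74%.

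Exon lengths and positions were read from GENCODE M21 (GRCm38), which 14515 of the 14831 identifiers match with the version and 14822 without it. Promoters are those of RefSeq on GRCm38.p6, with an entry for 45 of the 51 lysosomal genes and searched on both strands. Named genes are Gpnmb, Tfeb, Tfe3, Mitf, every lysosomal gene called, the gene with the largest change and the one with the highest level per length in each role, and up to 3 genes called in each direction of every other list. The other genes named, among them the partners of complexes, neighbours of Gpnmb and genes that did not pass, were chosen after their values were seen. The alternatives were 3 scalings (total-count, upper-quartile, RLE), no filter or at least 10 counts in every library, no fold limit or a 2-fold one, 3 tests (limma 3.58.1 on the deposited log2 values, limma-voom, DESeq2 1.42.0) and each library left out in turn.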

Additional observations from a re-analysis of the deposited data

How the results depend on the processing

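With no fold limit the lysosomal genes other than Gpnmb held 29 called lower and 7 higher in place of 5 and 0, and with a 2-fold limit 0 were called lower. Over the pathway lists, counts of 6 lower and 3 higher became 67 and 21 with no fold limit, and 2 and 1 with a 2-fold limit. The same 5 lysosomal genes were called lower under every scaling, filter, test and left-out library tried. Leaving out each library in turn gave 5 lysosomal genes lower and 0 higher throughout, 5 to 6 pathway genes lower (Atg12 was lost without replicate 2 labelled WT, at -0.57) and 3 higher. The median log2 fold change of the lysosomal genes, -0.17, became -0.11 under upper-quartile scaling and -0.14 under total-count scaling, and ran from -0.19 to -0.16 over the left-out libraries. Atg12 also lost its call under upper-quartile (-0.54) and total-count scaling (-0.56), and Fnip2 under upper-quartile scaling (-0.57). Upper-quartile scaling turned Gaa from -0.04 to 0.0175 and Ids from -0.04 to 0.0132, and Ctsk, at 0.03, turned below 0 with limma-voom (-0.00137) and without replicate 2 labelled WT (-0.04) or replicate 1 labelled KO (-0.17). Mlana lost its call when replicate 2 or 3 labelled WT or replicate 3 labelled KO was left out (edgeR adjusted p = 0.0683, 0.0665 and 0.0785). Over all genes, calls numbered 8391 with no fold limit, 1456 with a 2-fold limit and 2342 with DESeq2, against 2531. The cause of these shifts was not tested, apart from the fold limits, which admit more or fewer genes by construction. No paired analysis was possible because the labels give no replicate numbers. The replicate numbers used here only follow the order in which each group's values are printed. A floor of 3 counts is 0.0957 CPM in the shallowest library, and low counts limit Ctsk, Atg9b and Zfp775.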
